A study of Mus musculus with 21 samples.

Results

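The comparison sets MHCII-low macrophages of obese mice against the same sorted population of lean mice. Its members are the 6 MHCII-low libraries among the 21 of the series, 3 from each diet, chosen by the diet and the cell population in their titles, and the effect was read across every gene that passed a filter on low counts. All mice were male C57BL/6, given high fat diet (obese) or normal diet (lean) for 16 weeks. Their adipose tissue was digested with collagenase, macrophages with little MHC class II on their surface were sorted on a FACS Aria III, and RNA isolated with PicoPure columns was made into libraries by a NuGen Ovation mouse protocol. CD11c-negative macrophages, which are MHC class II positive, were sorted from both diets in 3 libraries each and serve here as a second population. The labels name no transgene or drug, and neither the fat depot nor the age is given. They do not say whether the replicates are separate animals, so p-values measure spread between these samples, which may be technical.

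Adipose tissue holds resident macrophages that clear dying cells, take up iron and sit along blood vessels, and many of these carry little MHC class II. In obesity, macrophages of the tissue take up lipid released by enlarged and dying adipocytes and can change into lipid-associated macrophages, which carry the lipid receptor Trem2 and are rich in lysosomes. The lysosome breaks down the lipid, sterol-sensing nuclear receptors of the LXR family turn on export genes, and mitochondria burn fatty acids. Macrophages of fat tissue can also divide in place.

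Expression is given as CPM, counts relative to library sizes that TMM, a method that assumes most genes equal between libraries, adjusts, and values of a gene are listed in the order of replicates 1 to 3. Calls are at an adjusted p under 0.05, from edgeR's quasi-likelihood test with Benjamini-Hochberg adjustment across the 22935 genes tested. Genes given by their values were called unless the text says otherwise. Log2 changes are obese over lean, with the standard error (SE) that the test implies. Library totals ran from 20783760 to 21530356 counts in lean and from 30083259 to 35568948 counts in obese MHCII-low libraries.

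MHC class II genes were low in these cells, as the name of the population states. The MHC class II chain gene H2-Ab1 measured 233 ± 23.9 CPM in lean MHCII-low and 2098 ± 350.4 CPM in lean CD11c-negative macrophages (SD, n = 3), a log2 difference of -3.17 (SE 0.23, adjusted p = 4.24e-08). In obese mice the log2 difference was -2.90 (SE 0.23), and those of H2-Aa, H2-Eb1 and Cd74 lay between -3.47 and -2.35 over both diets. The general macrophage gene Csf1r, a growth factor receptor, was not called, with 2491, 2228 and 2108 CPM in lean and 2253, 2101 and 2108 CPM in obese libraries (log2 change -0.08, SE 0.25). Adgre1, which encodes F4/80, rose from 406 ± 33.4 to 894 ± 158 CPM, and the lysosomal glycoprotein Cd68 rose from 359.8 ± 41.6 to 622 ± 32.4 CPM (adjusted p = 0.0157). Cd68 lost its call with lean replicate 2 or 3 or obese replicate 2 or 3 left out (highest adjusted p = 0.0771).

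Libraries of the 2 diets differed in more than the sorted cells' own genes. Of 1455 olfactory and vomeronasal receptor genes, 1388 were under 0.5 CPM in all 6 libraries. Reads on protein-coding receptors of these families averaged 0.0967 to 0.146 CPM per gene in lean and 0.0208 to 0.0329 CPM per gene in obese libraries. The highest single receptor read 9.57 to 13.6 CPM in lean and 5.27 to 10.4 CPM in obese libraries, so these means are not background alone. At an equal depth of 11245851 counts, 29288 to 32777 genes were detected in lean against 24172 to 24775 in obese libraries. Of all tested genes 13.8% were called lower and 16.8% higher in obese mice. Of the markers of other cell types, those of mesothelium fell in 8 of 10 genes, with a summed level of 61 ± 17.4 CPM of the library total in lean and 18.4 ± 8.10 CPM in obese mice. Peritoneal macrophage genes fell in 8 of 10, from 172 ± 62.1 to 68.8 ± 2.36 CPM. Among T and NK cell genes 11 of 15 fell, and without Il7r, the member that rose, their sum was 37.5 ± 8.64 and 14 ± 3.19 CPM. Of 14 adipocyte genes 7 fell, and 3 that macrophages also express (Fabp4, Lpl and Acsl1) rose. Lean libraries held 2247 ± 166 CPM and obese libraries 4484 ± 1062 CPM of the whole list. Without those and Cd36 the sum was 46.5 ± 5.39 and 9.42 ± 1.38 CPM. Of 10 monocyte markers 4 fell and 1 rose, and without Fn1 and S100a4 they summed to 144 ± 25.9 and 96.5 ± 14.1 CPM. B cell markers summed to 225 ± 20.7 and 189.9 ± 17.2 CPM, dendritic cell markers to 126 ± 7.56 and 54.7 ± 9.53 CPM. The 16 fibroblast genes summed to 3268 CPM in obese replicate 2 and to 1335 to 1809 CPM in the other 5 libraries. Of the mesothelial markers, 2 were lower with obese replicate 3 left out and 5 with lean replicate 1 or obese replicate 1 left out. Of the peritoneal macrophage markers, 3 were lower with lean replicate 1 or obese replicate 3 left out, 4 with lean replicate 3 or obese replicate 2 left out and 5 with lean replicate 2 or obese replicate 1 left out. Of the T and NK cell markers, 0 were lower among the 1 tested when genes under 10 CPM were left out, 2 with obese replicate 2 left out, 3 with lean replicate 3 left out, 4 with obese replicate 1 left out, 5 with lean replicate 2 left out and at equal depth and 7 with obese replicate 3 left out. Of 8 mast cell and eosinophil markers 2 rose and 0 fell, with sums of 24.3, 30.1 and 20.8 CPM in lean and 11.6, 67.4 and 77.3 CPM in obese libraries. Cxcr2 and Ly6g of neutrophils and, within that list, Epx of eosinophils were under 0.5 CPM in all 6 libraries. At 10 CPM or more in lean mice, 2 mesothelial, 5 peritoneal macrophage, 0 T and NK cell and 1 adipocyte gene were called lower. Of 171 tested olfactory and vomeronasal receptor genes, 74 were called lower and 2 higher. The part of such low-level reads in the marker falls was not tested. In such bulk samples fewer cells of a type and less RNA per cell cannot be told apart, and the part of other cells in the falls below was not tested.

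High fat diet was followed by a broad change of expression in these cells. Of the 22935 genes 7030 (30.7%) were called, 3864 higher (16.8%) and 3166 lower (13.8%) in obese mice. Of the 8655 genes that averaged 10 CPM or more in whichever diet was higher, 3818 (44.1%) were called, 2888 higher (33.4%) and 930 lower (10.7%), and libraries of the diets did not overlap in 62.0% (49.4% of all tested genes). Called rises added up to a gain of 10.2% of the library and called falls to a loss of 4.97%. The balance of rises and falls depended on scaling. At 10 CPM or more the median log2 change was 0.20 with TMM, and counts were 1555 higher and 1811 lower with a median of 0.00 under upper quartile scaling, and 1897 and 1929 with TMM computed on those genes alone. A list median is therefore read here against 0.20. A list count is read against the 33.4% of genes of at least 10 CPM that were called higher and the 10.7% called lower. For each list below, a count of 3 or more that moved by over 1.5 times without 1 library, with upper quartile scaling, with DESeq2 size factors or at equal depth is given with its new value, and where genes under 10 CPM were left out, which tests fewer members, the new count is given if the share moved that much. Without obese replicate 2 the calls at 10 CPM or more were 1447 higher and 402 lower, and without obese replicate 3 they were 1526 and 426. Without lean replicate 2 they were 1834 and 487, and without lean replicate 3 1874 and 651.

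**Figure D1:**
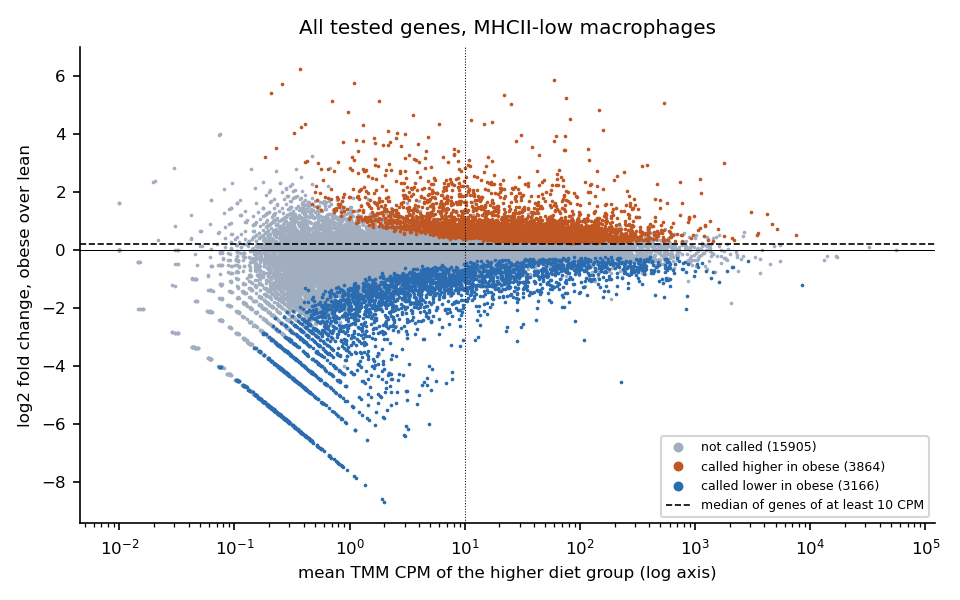
Log2 fold change (obese over lean) of the 22935 tested genes against the mean TMM CPM of the higher diet group on a log axis. Orange points are the 3864 genes called higher, blue points the 3166 called lower, the dashed line is the median log2 change of 0.20 of genes of at least 10 CPM, and the dotted line marks 10 CPM. Below 10 CPM blue points outnumber orange ones, and above it orange points outnumber blue ones.

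The 12 largest rises among genes of at least 10 CPM joined known genes of lipid-laden macrophages to genes of adhesion and chromatin. Fat3, an atypical cadherin (chromosome 9, 15910189 to 16501285 on GRCm38), read 0.457, 1.36 and 1.21 CPM in lean and 17.3, 73.7 and 86.6 CPM in obese libraries, a log2 change of 5.87 (SE 0.90, adjusted p = 0.000258). Cadm1, an adhesion molecule of the immunoglobulin superfamily (chromosome 9, 47530173 to 47857637), read 2.10, 2.28 and 1.55 CPM in lean and 29.8, 87.2 and 109 CPM in obese libraries, a log2 change of 5.25 (SE 0.58, adjusted p = 1.08e-05). Genes were picked here only if libraries of the diets did not overlap, so that separation in them was given in advance. Gpnmb, a glycoprotein of lysosomes and lipid-laden macrophages (chromosome 6, 49036546 to 49070929), read 19.5, 19.3 and 8.41 CPM in lean and 262, 642 and 692 CPM in obese libraries (log2 change 5.08, SE 0.49). Mmp12, the macrophage elastase (chromosome 9, 7344381 to 7369499), read 4.52, 4.61 and 6.13 CPM in lean and 71.7, 195 and 168 CPM in obese libraries, a log2 change of 4.83 (SE 0.48). The ubiquitin ligase gene Rnf128 read 4.66, 2.86 and 3.28 CPM in lean and 24.8, 118 and 104 CPM in obese libraries (log2 change 4.51, SE 0.56). Hmga2, a chromatin protein best known from embryonic and dividing cells, stood at 0.639, 0.582 and 0.906 CPM in lean and 7.42, 18.6 and 18.2 CPM in obese libraries (log2 change 4.36, SE 0.55). Ptchd1, a gene of a patched-domain membrane protein, read 0.685, 0.728 and 0.992 CPM in lean and 8.53, 21.9 and 20.9 CPM in obese libraries (log2 change 4.4, SE 0.35), with the smallest adjusted p of the 12 (9.21e-08). The other 5 were Myh15, Plxdc1, Pcp4l1, Atp6v0d2 and Dhrs9, with log2 changes from 3.95 (Dhrs9, a dehydrogenase of retinoids and steroids) to 5.34 (Myh15, a myosin heavy chain). Genes on the other strand overlap Cadm1, Plxdc1, Mmp12, Rnf128, Ptchd1 and Hmga2, and as no source used here gives the strand setting of the counting, their reads may be mixed.

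The largest falls were led by Mmp9, a gelatinase of the matrix (chromosome 2, 164940780 to 164955850), with 234, 263 and 185 CPM in lean and 11.2, 8.57 and 9.39 CPM in obese libraries, a log2 change of -4.55 (SE 0.47, adjusted p = 5.11e-06). Pla2g2d, a secreted phospholipase of resident macrophages and dendritic cells (chromosome 4, 138775735 to 138782046), read 122, 117 and 87.3 CPM in lean and 17.4, 8.19 and 12 CPM in obese libraries (log2 change -3.11, SE 0.27). Timd4, a receptor for phosphatidylserine on dying cells (chromosome 11, 46810800 to 46844332), read 108, 86.8 and 74.7 CPM in lean and 22.9, 15.7 and 11.1 CPM in obese libraries (log2 change -2.44, SE 0.35). The falls, too, were picked only if libraries of the diets did not overlap. Ifi202b, an interferon-inducible gene, read 30.2, 42.5 and 23.6 CPM in lean and 9.53, 3.96 and 3.10 CPM in obese libraries (log2 change -2.53, SE 0.41), and the chloride transporter gene Slc12a5 read 26, 22.8 and 20.3 CPM in lean and 4.53, 2.62 and 2.71 CPM in obese libraries (log2 change -2.80, SE 0.38). The estrogen sulfotransferase Sult1e1 fell by 3.11 (SE 0.39) on the log2 scale and Tcp11 fell by 2.41 (SE 0.30). Car3, a carbonic anhydrase abundant in adipocytes, read 25.5, 29.9 and 29.9 CPM in lean and 3.48, 3.27 and 2.94 CPM in obese libraries (log2 change -3.13, SE 0.46), and 6 other adipocyte markers above fell with it. Siglech, a lectin of plasmacytoid dendritic cells and microglia, read 37.2, 30.1 and 25.6 CPM in lean and 7.31, 3.49 and 3.94 CPM in obese libraries (log2 change -2.65, SE 0.37). Il2rb and Ikzf3, genes of T and NK cells, fell by log2 changes of -2.64 and -2.99, as T and NK cell markers also did.

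**Figure D2:**
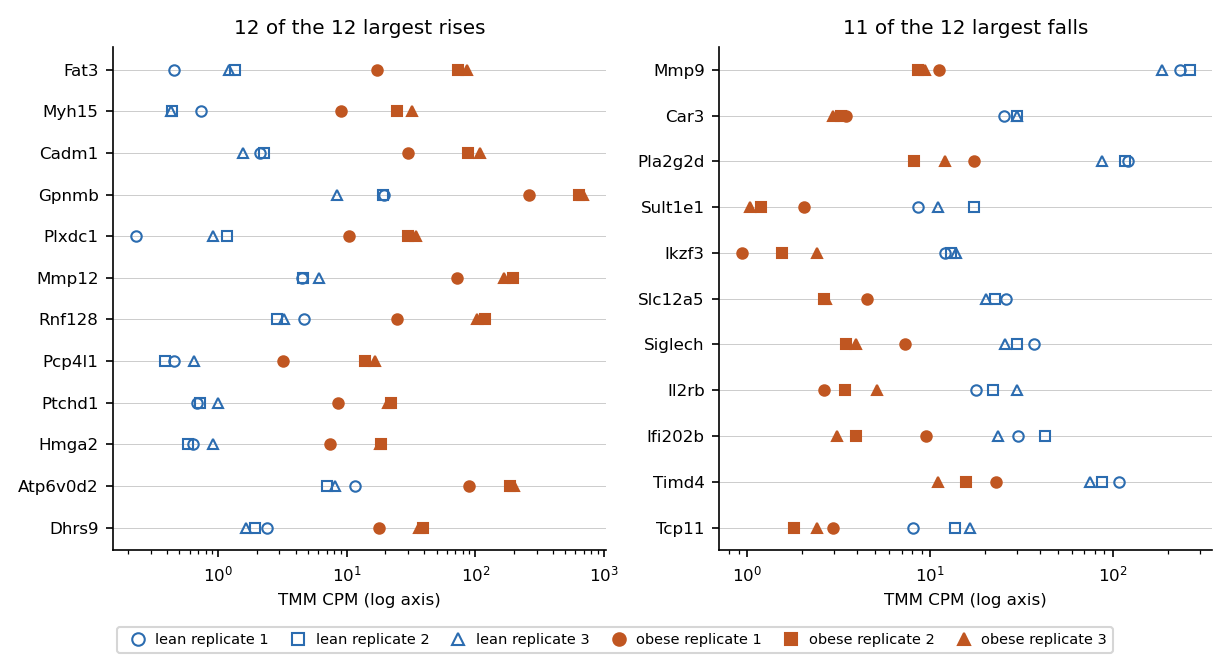
TMM CPM (log axis) of the 12 largest called rises and 11 of the 12 largest called falls among protein-coding genes of at least 10 CPM, with lean libraries as open blue and obese libraries as filled orange symbols and the replicate as the symbol's shape. Obese replicate 1 (filled circle) is the obese library nearest to lean in 12 of the 12 rises and 9 of the 11 falls.

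Measured by CPM gained, the leading genes were those of lysosomes, lipid uptake and the cytoskeleton. Psap, the precursor of saposins that help degrade sphingolipids, read 2003, 1747 and 1613 CPM in lean and 3255, 4879 and 4423 CPM in obese libraries, a log2 change of 1.23 (SE 0.16, adjusted p = 2.06e-05). Lrp1, a large endocytic receptor, read 1402, 1306 and 1014 CPM in lean and 2236, 3611 and 3401 CPM in obese libraries (log2 change 1.31, SE 0.19), and the lipoprotein lipase gene Lpl read 263, 230.4 and 165 CPM in lean and 922, 2182 and 2225 CPM in obese libraries (log2 change 3.01, SE 0.40). The intermediate filament gene Vim rose from 2318 ± 104 to 3521 ± 59.1 CPM. Ctsb, Lyz2, Actb and Plec also gained, by log2 changes of 0.73, 0.89, 0.52 and 0.52. Ctsb lost its call with lean replicate 2 or 3 or obese replicate 2 or 3 left out and under upper quartile scaling (highest adjusted p = 0.106). Lyz2 lost its call with any 1 library left out, with DESeq2 size factors, at equal depth, when genes under 10 CPM were left out, with a replicate block over all libraries and under upper quartile scaling (highest adjusted p = 0.177). Actb lost its call with lean replicate 2 or 3 or any 1 obese library left out, with DESeq2 size factors, at equal depth, when genes under 10 CPM were left out and under upper quartile scaling (highest adjusted p = 0.150). Plec lost its call with lean replicate 1 or 3 or obese replicate 1 or 2 left out, when genes under 10 CPM were left out and under upper quartile scaling (highest adjusted p = 0.103). The largest loss was that of Cd163, the scavenger receptor for haemoglobin, with 1616, 1699.9 and 1537 CPM in lean and 1088, 643 and 549 CPM in obese libraries (log2 change -1.09, SE 0.20). The endocytic adaptor gene Eps8 read 1263, 1595 and 1276 CPM in lean and 962, 579.6 and 576 CPM in obese libraries (log2 change -0.97, SE 0.19), the histone demethylase Kdm6b 1965, 2195 and 1577 CPM in lean and 1391, 1058 and 1060.0 CPM in obese libraries (log2 change -0.71, SE 0.15) and the related Jmjd1c 2003, 2131 and 2223 CPM in lean and 1757, 1181 and 1328 CPM in obese libraries (log2 change -0.58, SE 0.13). Jmjd1c lost its call with obese replicate 2 left out (highest adjusted p = 0.0509).

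Genes of lipid-associated macrophages rose as a group. Of 20 members 18 were called higher and 0 lower, with a median log2 change of 1.41 (all genes of at least 10 CPM, 0.20), and over the alternatives 14 to 19 were higher. This list was drawn up with earlier results of these data known, so its direction is no independent evidence. Trem2, the lipid receptor that marks these cells, read 42.6, 30.5 and 36.4 CPM in lean and 115, 175 and 186 CPM in obese libraries (log2 change 2.12, SE 0.25). The tetraspanin Cd9 read 11.7, 9.13 and 10.7 CPM in lean and 58.2, 146 and 146 CPM in obese libraries (log2 change 3.47, SE 0.34), Itgax, which encodes CD11c, 5.44, 3.74 and 4.57 CPM in lean and 21.5, 58.3 and 53.7 CPM in obese libraries (log2 change 3.28, SE 0.30), and Spp1, encoding osteopontin, rose from 12 ± 7.37 to 57 ± 22.8 CPM. Spp1 lost its call with a replicate block in the compared libraries alone (highest adjusted p = 0.1003). In Trem2, Cd9 and Itgax the obese libraries lay above the lean ones without overlap, with obese replicate 1 the lowest of the 3. The galectin Lgals3 rose from 287 ± 25.3 to 1118 ± 225 CPM and the fatty acid-binding protein Fabp5 from 6.42 ± 2.85 to 42.7 ± 15.8 CPM. The members that were not called were Apoe, an apolipoprotein with 5035, 4125 and 4189 CPM in lean and 4431, 4693 and 5516 CPM in obese libraries (log2 change 0.13, SE 0.33), and the fatty acid translocase Cd36 with 2027, 1853 and 1691 CPM in lean and 2385, 2814 and 2622 CPM in obese libraries (log2 change 0.49, SE 0.25).

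Lipid uptake, storage and sterol genes were mixed. Of 20 uptake and scavenger genes 10 rose and 2 fell. Slc27a1, a fatty acid transporter, read 87.1, 84 and 84.7 CPM in lean and 215, 267 and 266 CPM in obese libraries (log2 change 1.55, SE 0.14), and Scarb1, the receptor for high density lipoprotein, read 18.7, 16.3 and 14.7 CPM in lean and 31, 53.5 and 50 CPM in obese libraries (log2 change 1.44, SE 0.18). Cd163 and the collectin Colec12 fell. Of 20 droplet genes 9 rose and 4 fell. Hilpda, an inhibitor of triglyceride lipase, read 31.2, 26.7 and 21.9 CPM in lean and 66.6, 86.7 and 90.8 CPM in obese libraries (log2 change 1.61, SE 0.17), and Nceh1, which hydrolyses cholesterol esters, 87.6, 75.1 and 56.3 CPM in lean and 189, 299 and 317 CPM in obese libraries (log2 change 1.88, SE 0.26). The coat gene Plin2 rose from 669.6 ± 107 to 1231 ± 119 CPM and Soat1, which makes cholesterol esters, from 149.7 ± 28 to 246 ± 18.2 CPM. Plin4, Lipe, Abhd5 and Dgat2, of which the first pair are best known from adipocytes, changed by -1.34, -0.59, -0.55 and -0.76 as 7 of the 14 adipocyte markers did. Lipe lost its call with lean replicate 3 or obese replicate 1 or 2 left out (highest adjusted p = 0.0865). Abhd5 lost its call with lean replicate 2 or obese replicate 2 or 3 left out (highest adjusted p = 0.0948). Dgat2 lost its call with lean replicate 2 or obese replicate 2 or 3 left out (highest adjusted p = 0.0708). Of the droplet genes, 1 was lower with obese replicate 2 left out and 2 with lean replicate 2 or obese replicate 3 left out.

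Among 17 tested genes of the LXR and PPAR receptors and their targets 7 rose and 3 fell, with a median of 0.13 (0.22 with lean replicate 1 left out, 0.25 with obese replicate 1 left out, 0.22 with obese replicate 3 left out) (-0.07 under upper quartile scaling). The sterol exporter Abcg1 read 36.9, 39.8 and 30.4 CPM in lean and 126, 240.3 and 258 CPM in obese libraries (log2 change 2.54, SE 0.24). Its relative Abca1, also a sterol exporter, was not called at 2169, 2177 and 1710.0 CPM in lean and 1921, 1705 and 1953 CPM in obese libraries (log2 change -0.12, SE 0.22). The receptors Nr1h3 (LXR alpha) and Pparg (PPAR gamma) rose from 4.97 ± 0.335 to 20.2 ± 5.56 CPM and from 8.01 ± 1.20 to 25.1 ± 3.60 CPM, and genes on the other strand overlap both. Scd1, a desaturase that LXR is known to activate, went the other way, with 32, 36.6 and 40.7 CPM in lean and 12.1, 14.4 and 11.4 CPM in obese libraries (log2 change -1.53, SE 0.20). Of 22 genes of sterol synthesis 8 rose and 2 fell (45.5% called, against 44.1% of all genes of at least 10 CPM). Msmo1 read 15.1, 15.6 and 13.1 CPM in lean and 27.6, 31 and 26.5 CPM in obese libraries (log2 change 0.96, SE 0.13) and Dhcr7 6.85, 6.55 and 6.56 CPM in lean and 12.2, 15 and 13.4 CPM in obese libraries (log2 change 1.02, SE 0.16). Of the sterol genes, 4 were higher with obese replicate 2 left out and 5 with obese replicate 3 left out and under upper quartile scaling.

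Lysosomal hydrolases rose in part. Of 30 hydrolases 15 rose and 0 fell, with a median of 0.46. Ctsk, a cathepsin of osteoclasts, read 5.66, 7.86 and 6.52 CPM in lean and 40.4, 92.4 and 88.4 CPM in obese libraries (log2 change 3.46, SE 0.37). Gusb, the glucuronidase, read 114, 91.2 and 97.3 CPM in lean and 237, 327 and 331 CPM in obese libraries (log2 change 1.57, SE 0.22), and Lipa, the acid lipase for sterol esters and triglycerides, 271, 254 and 222 CPM in lean and 526, 909.7 and 868 CPM in obese libraries (log2 change 1.63, SE 0.27). Ctsc, an exopeptidase, read 1263, 1072 and 940.3 CPM in lean and 1138, 881 and 844 CPM in obese libraries (log2 change -0.19, SE 0.16) and Lamp1, a membrane glycoprotein on the same list, 735, 602 and 574 CPM in lean and 949, 871 and 810.4 CPM in obese libraries (log2 change 0.46, SE 0.19), and neither was called. Of 18 pump genes 6 rose (33.4% of all genes of at least 10 CPM rose), with a median of 0.27. Atp6v0d2, the d subunit known from osteoclasts and dendritic cells (chromosome 4, 19876841 to 19922605), read 11.6, 7.09 and 8.16 CPM in lean and 89.7, 187 and 201 CPM in obese libraries (log2 change 4.15, SE 0.33), while its ubiquitous counterpart Atp6v0d1 read 135, 119.8 and 98.4 CPM in lean and 147, 136 and 129.7 CPM in obese libraries (log2 change 0.23, SE 0.17) and was not called. Tcirg1, the a3 subunit of osteoclast and lysosome pumps, read 141, 147 and 128 CPM in lean and 236, 339.9 and 336 CPM in obese libraries (log2 change 1.13, SE 0.14). Atp6v1a, the catalytic subunit, read 486, 493 and 416 CPM in lean and 559, 539 and 506 CPM in obese libraries (log2 change 0.20, SE 0.16) and Atp6v1h, a regulatory one, 463, 608 and 610.2 CPM in lean and 511, 284 and 315 CPM in obese libraries (log2 change -0.60, SE 0.23), and neither was called. Of the hydrolases, 9 were higher with lean replicate 2 or 3 or obese replicate 2 or 3 left out. Of 18 autophagy genes 2 rose and 2 fell.

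Genes of cell division rose nearly throughout. Of 30 genes of mitosis and cytokinesis 29 were called higher and 0 lower, with a median log2 change of 1.94 that stayed between 1.74 and 2.05 over the alternatives. Of 30 replication genes 22 rose and 0 fell, with a median of 0.90. Cenpe, the kinetochore motor (chromosome 3, 135212537 to 135273611), read 5.12, 6.07 and 6.86 CPM in lean and 29.8, 25.3 and 26.3 CPM in obese libraries, a log2 change of 2.17 (SE 0.16, adjusted p = 3.24e-08). Birc5, survivin of the chromosomal passenger complex (chromosome 11, 117849251 to 117855743), read 1.42, 1.02 and 1.81 CPM in lean and 10.3, 9.07 and 10.7 CPM in obese libraries, a log2 change of 2.81 (SE 0.22, adjusted p = 6.76e-08). Top2a, the topoisomerase of dividing cells (chromosome 11, 98992943 to 99024189), read 17.6, 16.6 and 20.9 CPM in lean and 84, 76.9 and 65.1 CPM in obese libraries (log2 change 2.03, SE 0.17). Mki67, which encodes the proliferation marker Ki-67 (chromosome 7, 135689784 to 135716361), read 71.9, 89.2 and 97.3 CPM in lean and 304, 296 and 283 CPM in obese libraries (log2 change 1.77, SE 0.15), and the mitotic cyclin Ccnb1 (chromosome 13, 100778650 to 100786570) read 1.55, 1.75 and 1.81 CPM in lean and 8.77, 8.48 and 7.10 CPM in obese libraries (log2 change 2.25, SE 0.20). In these 5 genes every obese library lay above every lean one. Kif23, a kinesin of cytokinesis, was the member not called, with 12.9, 12.7 and 22.5 CPM in lean and 29.6, 20.3 and 18.6 CPM in obese libraries (log2 change 0.51, SE 0.23). Among the 43 tested genes with symbols starting Kif, mostly kinesins, 15 rose and 5 fell. Of the kinesin genes, 4 were higher among the 20 tested when genes under 10 CPM were left out, and 1 was lower with lean replicate 2 or obese replicate 2 left out and 2 with lean replicate 3 left out. In the replication list, Mcm6 of the replicative helicase read 22.8, 16.9 and 19.8 CPM in lean and 53.9, 70.1 and 59.2 CPM in obese libraries (log2 change 1.62, SE 0.13) and Pole, the leading strand polymerase, 5.21, 5.05 and 4.62 CPM in lean and 15.6, 15.7 and 15.2 CPM in obese libraries (log2 change 1.64, SE 0.15). The sliding clamp Pcna, which also serves DNA repair, read 124, 160.1 and 143 CPM in lean and 152, 129.7 and 132 CPM in obese libraries (log2 change -0.05, SE 0.19) and was not called.

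Since the mitotic genes moved together, the promoters of 5 of them are shown, from 250 bases before to 50 bases after the start in RefSeq on GRCm38.p6, written 5′ to 3′ on the gene's strand. Capitals mark CCAAT, the CCAAT box, and TTTGAA, the core of the cell cycle homology region (CHR), a site of the DREAM complex in cell cycle promoters, on either strand, so that ATTGG and TTCAAA are marked too.
Cenpe promoter, chr3:135212313-135212612, plus strand: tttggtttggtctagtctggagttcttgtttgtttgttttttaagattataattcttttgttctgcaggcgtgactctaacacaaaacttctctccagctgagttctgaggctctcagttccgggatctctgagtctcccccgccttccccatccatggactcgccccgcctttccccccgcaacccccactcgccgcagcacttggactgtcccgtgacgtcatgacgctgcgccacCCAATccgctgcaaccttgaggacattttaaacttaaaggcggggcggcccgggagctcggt
Birc5 promoter, chr11:117848987-117849286, plus strand: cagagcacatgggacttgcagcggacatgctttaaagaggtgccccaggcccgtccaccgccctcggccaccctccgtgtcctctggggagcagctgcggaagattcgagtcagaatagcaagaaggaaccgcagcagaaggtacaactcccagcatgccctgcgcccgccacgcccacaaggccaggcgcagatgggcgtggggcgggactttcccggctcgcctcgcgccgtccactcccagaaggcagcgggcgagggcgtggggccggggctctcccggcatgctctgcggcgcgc
Top2a promoter, chr11:99024140-99024439, minus strand: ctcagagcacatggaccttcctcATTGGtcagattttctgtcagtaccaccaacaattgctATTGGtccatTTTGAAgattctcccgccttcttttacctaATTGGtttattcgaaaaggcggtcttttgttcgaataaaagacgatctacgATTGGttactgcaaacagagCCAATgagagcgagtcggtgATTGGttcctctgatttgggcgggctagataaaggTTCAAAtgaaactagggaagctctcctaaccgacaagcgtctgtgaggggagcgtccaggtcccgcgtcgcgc
Mki67 promoter, chr7:135716330-135716629, minus strand: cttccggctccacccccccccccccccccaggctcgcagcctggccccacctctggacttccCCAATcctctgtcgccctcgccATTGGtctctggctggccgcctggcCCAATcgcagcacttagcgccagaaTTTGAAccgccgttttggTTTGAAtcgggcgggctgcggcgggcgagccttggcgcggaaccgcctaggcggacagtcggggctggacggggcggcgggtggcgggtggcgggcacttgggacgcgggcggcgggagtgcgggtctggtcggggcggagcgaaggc
Ccnb1 promoter, chr13:100786437-100786736, minus strand: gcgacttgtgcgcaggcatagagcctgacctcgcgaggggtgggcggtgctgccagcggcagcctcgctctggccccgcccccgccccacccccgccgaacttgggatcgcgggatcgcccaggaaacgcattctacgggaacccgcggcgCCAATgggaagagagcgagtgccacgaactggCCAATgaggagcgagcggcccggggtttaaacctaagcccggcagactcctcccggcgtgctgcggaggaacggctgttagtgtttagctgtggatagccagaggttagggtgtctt
The Top2a window held 6 matches to CCAAT and 2 to TTTGAA, that of Mki67 3 and 2, that of Ccnb1 2 and 0, that of Cenpe 1 and 0, and that of Birc5 neither. Of the 26 list members with a RefSeq entry, 21 (80.8%) held CCAAT and 20 (76.9%) held TTTGAA, against 38.2% and 16.9% of all 20550 promoters. In the replication list, 7 of 24 (29.2%) held TTNGCGC, the core of an E2F site, on either strand, against 7.51% of all promoters and 9.72% of those of tested genes. The immediate early and heat shock list, of which 8 members fell, held TTNGCGC in 4 of 16 and CCAAT in 10 of 16 promoters. The replication list held CCAAT in 15 of 24, and the mitosis list TTNGCGC in 5 of 26. Of the promoters of tested genes, 37.8% held CCAAT and 13.5% TTTGAA. The E-box CACGTG was searched too, and was in 4 of 12 proton pump promoters, 0 of the 3 called ones and 9.22% of those of tested genes. The AP-1 site TGANTCA was in 0 of 16 promoters of the immediate early and heat shock list and 5.81% of those of tested genes. A match to CCAAT can share up to 4 bases with one to TTNGCGC and 1 base with one to TTTGAA, and overlapping matches were counted. A match describes the letters in the window and is neither a measured binding site nor a cause.

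Mitochondrial and proteasome genes rose by small amounts. Of 22 genes of fatty acid oxidation 17 rose and 2 fell, with a median of 0.68. Hadhb, a subunit of the trifunctional protein, read 30.2, 25.5 and 29.4 CPM in lean and 49.1, 60.3 and 57.3 CPM in obese libraries (log2 change 0.97, SE 0.11), and Cpt1a, the gatekeeper of import, rose from 192 ± 26.7 to 289 ± 21 CPM. Cpt1a lost its call with lean replicate 2 or obese replicate 2 or 3 left out (highest adjusted p = 0.0764). Of 27 nuclear genes of respiratory complexes II to V 21 rose and 0 fell, and of 46 genes with symbols starting Nduf, mostly subunits and assembly factors of complex I, 30 rose and 0 fell. Atp5a1, a subunit of ATP synthase, read 165, 152 and 160.0 CPM in lean and 252, 265 and 260.3 CPM in obese libraries (log2 change 0.70, SE 0.11). Mitochondrial ribosomal proteins rose in 44 of 77 and proteasome subunits in 26 of 39, with medians of 0.60 and 0.52 and none lower. Of the genes of complexes II to V, 11 were higher with lean replicate 2 or obese replicate 2 left out and 12 with obese replicate 3 left out. Of the Nduf genes, 15 were higher with lean replicate 2 or obese replicate 3 left out, 16 with obese replicate 2 left out and 19 with lean replicate 3 left out and under upper quartile scaling. Of the mitochondrial ribosomal genes, 22 were higher with lean replicate 2 left out, 23 with obese replicate 3 left out and 24 with obese replicate 2 left out and under upper quartile scaling. Of the proteasome genes, 14 were higher with obese replicate 2 left out, 15 with obese replicate 3 left out, 16 with lean replicate 2 left out and 17 under upper quartile scaling. The 3 medians kept a positive sign under upper quartile scaling, at 0.50 for complexes II to V, 0.39 for mitochondrial ribosomes and 0.32 for the proteasome.

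Of 21 tested genes of glycolysis and the pentose phosphate pathway 11 rose and 3 fell. The pentose phosphate enzymes Tkt and Taldo1 read 79.8, 69.5 and 63.3 CPM in lean and 128, 191 and 184 CPM in obese libraries (log2 change 1.24, SE 0.17), and 45.9, 39.8 and 42.8 CPM in lean and 68.8, 118 and 115 CPM in obese libraries (log2 change 1.23, SE 0.18). The glycolytic enzymes Tpi1 and Gapdh rose from 26.4 ± 2.33 to 53.3 ± 7.88 CPM and from 161 ± 21.9 to 283 ± 28.9 CPM. The 3 that fell were the hexokinases Hk2, from 280.1 ± 46.2 to 164 ± 34.4 CPM and Hk1, from 165 ± 24.5 to 101 ± 12 CPM, and Pfkfb3, which makes the activator of phosphofructokinase, from 579.9 ± 74.1 to 286 ± 88.9 CPM. Hk1 lost its call with lean replicate 2 or obese replicate 2 or 3 left out (highest adjusted p = 0.0583). Of the sugar metabolism genes, 7 were higher with obese replicate 2 left out, and 5 were lower under upper quartile scaling and among the 20 tested when genes under 10 CPM were left out. Antioxidant genes rose in 4 of 23, among them catalase (Cat), with 56.6, 55 and 54.5 CPM in lean and 97.2, 219.5 and 186 CPM in obese libraries (log2 change 1.6, SE 0.27). Hmox1, the heme oxygenase, was not called, and its obese replicate 1 stood with the lean libraries, at 2426, 2317 and 2361 CPM in lean and 2253, 948 and 1096 CPM in obese libraries (log2 change -0.72, SE 0.56). Of 20 iron and heme genes 7 rose and 4 fell (55.0% called, against 44.1% of all genes of at least 10 CPM). The transferrin receptor Tfrc fell from 202 ± 13.1 to 133 ± 33.8 CPM and the iron transporter Slc11a2 from 412 ± 45.3 to 240.3 ± 46.5 CPM, while Slc48a1, a heme transporter, rose from 53.3 ± 5.41 to 115 ± 19.6 CPM. Slc11a2 lost its call with lean replicate 2 or obese replicate 2 or 3 left out (highest adjusted p = 0.1004). Of the iron and heme genes, 3 were higher under upper quartile scaling and 4 with obese replicate 2 left out, and 2 were lower with lean replicate 2 or obese replicate 2 or 3 left out.

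**Figure D3:**
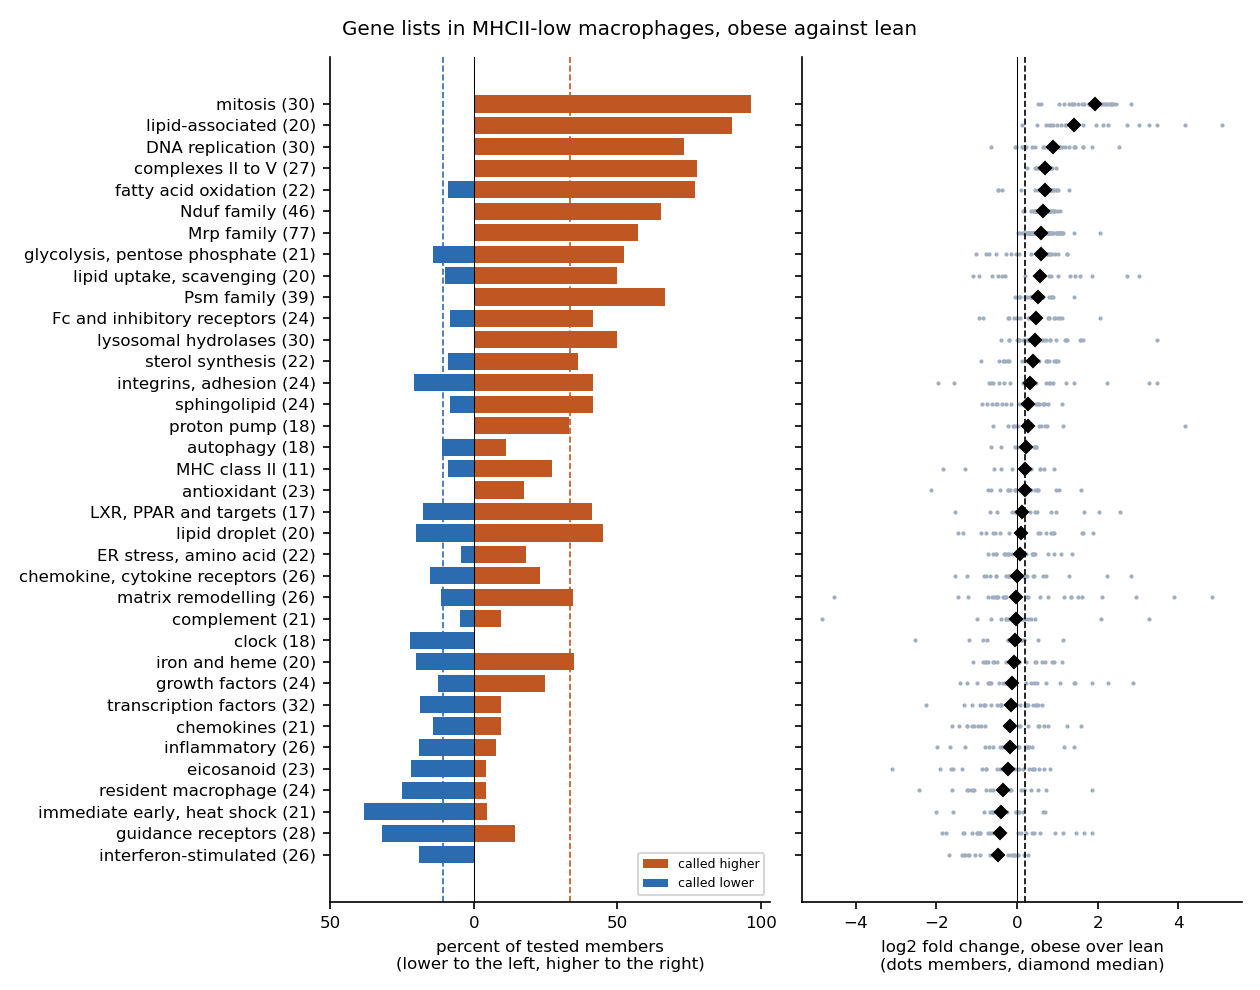
Gene lists ordered by median log2 fold change, with the number of tested members in brackets. Left, percent of members called higher (orange) and lower (blue), with dashed lines at 33.4% and 10.7%, the shares among all genes of at least 10 CPM; right, the log2 fold change of each member (dots) and the median (diamonds), with a dashed line at 0.20, the median of all genes of at least 10 CPM. Mitosis, at a median of 1.94, and lipid-associated genes, at 1.41, lead, and the interferon-stimulated list, at -0.47, is last.

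Genes of resident macrophages stayed expressed, and in the first fit a minority fell. Of 24 members 6 fell and 1 rose, with a median of -0.36. Those that fell were Timd4, Cd163, Ccl24, Cd209f, Cd209g and Fcna. Ccl24, an eosinophil chemokine, read 209.6, 148 and 116 CPM in lean and 82.1, 35.7 and 36.3 CPM in obese libraries (log2 change -1.62, SE 0.52), and the lectin gene Cd209f 616, 452 and 504 CPM in lean and 361, 174 and 176 CPM in obese libraries (log2 change -1.14, SE 0.40). Ccl24 lost its call with any 1 lean library or obese replicate 2 or 3 left out (highest adjusted p = 0.159). Cd209f lost its call with any 1 lean library or obese replicate 2 or 3 left out and with DESeq2 (highest adjusted p = 0.190). Cd209g lost its call with any 1 lean library or obese replicate 2 or 3 left out and with DESeq2 (highest adjusted p = 0.171). Fcna lost its call with any 1 lean library or obese replicate 2 or 3 left out, with DESeq2 and with a replicate block over all libraries (highest adjusted p = 0.208). Cd209 genes can share reads. Siglec1, a sialic acid receptor, rose from 239 ± 38.3 to 392 ± 30.6 CPM. Lyve1, a hyaluronan receptor of perivascular macrophages, read 954, 796 and 845 CPM in lean and 628, 352 and 253 CPM in obese libraries (log2 change -1.07, SE 0.46) and was not called (adjusted p = 0.0878). Mrc1, the mannose receptor, at 3898, 3691 and 3324 CPM in lean and 3574, 2725 and 2534 CPM in obese libraries (log2 change -0.30, SE 0.15), and Selenop, a selenium carrier, at 5401, 4889.6 and 4433 CPM in lean and 6228, 4941 and 5286 CPM in obese libraries (log2 change 0.16, SE 0.28), were not called. Of the resident genes, 2 were lower with any 1 lean library or obese replicate 2 or 3 left out and 9 under upper quartile scaling. Over all alternatives 2 to 13 were lower, so the share that fell depended on the fit. Peritoneal macrophage genes, summed above, fell beside this list, and their part in it was not tested.

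Among 32 transcription factors of macrophages 3 rose and 6 fell. Irf4, a factor of alternative activation and of dendritic cells, read 292, 278 and 213 CPM in lean and 156, 83.7 and 76.3 CPM in obese libraries (log2 change -1.31, SE 0.25). Stat3 read 791, 777 and 765 CPM in lean and 587, 445 and 459 CPM in obese libraries (log2 change -0.65, SE 0.13) and Id3 35.2, 30.9 and 27.8 CPM in lean and 15.7, 20.3 and 17.5 CPM in obese libraries (log2 change -0.81, SE 0.17). Tfeb, a master factor of lysosomal genes, read 29, 25.7 and 24.5 CPM in lean and 33.6, 44.8 and 42.3 CPM in obese libraries (log2 change 0.61, SE 0.14). Gata6, the factor of peritoneal macrophages, stood at 4.11, 3.98 and 3.06 CPM in lean and 1.55, 2.18 and 1.39 CPM in obese libraries (log2 change -1.12, SE 0.35) and fell with their markers. Gata6 lost its call with lean replicate 1 or 2 or obese replicate 1 or 3 left out (highest adjusted p = 0.0938). Of the transcription factors, 1 was higher with lean replicate 2 or 3 or obese replicate 2 or 3 left out and under upper quartile scaling and among the 29 tested when genes under 10 CPM were left out, and 11 were lower among the 29 tested when genes under 10 CPM were left out and 12 under upper quartile scaling.

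Inflammatory genes did not rise as a group. Of 26 members 2 rose and 5 fell, with a median of -0.17 (-0.10 with lean replicate 2 left out, -0.08 with obese replicate 2 left out). The cytokine genes Il1a and Il6 read 41.2, 62.2 and 24.7 CPM in lean and 16.9, 8.94 and 6.45 CPM in obese libraries (log2 change -1.99, SE 0.46), and 25.3, 44.6 and 27.7 CPM in lean and 13, 14.8 and 12.3 CPM in obese libraries (log2 change -1.28, SE 0.33). Il1rn, the natural antagonist of the interleukin 1 receptor, read 94.8, 83.7 and 42.5 CPM in lean and 219.9, 179.8 and 186 CPM in obese libraries (log2 change 1.41, SE 0.36). Nfkb1 fell from 1063 ± 240.2 to 706 ± 75.3 CPM, and the inflammasome sensor Nlrp3 from 293 ± 102 to 180.1 ± 13.8 CPM. Il6 lost its call with lean replicate 2 or obese replicate 3 left out (highest adjusted p = 0.0618). Il1rn lost its call with lean replicate 3 left out (highest adjusted p = 0.0507). Nfkb1 lost its call with lean replicate 2 or obese replicate 2 left out (highest adjusted p = 0.0941). Nlrp3 lost its call with lean replicate 2 or obese replicate 2 or 3 left out (highest adjusted p = 0.168). Of the inflammatory genes, 1 was lower with lean replicate 2 left out, 2 with obese replicate 2 or 3 left out and 10 among the 23 tested when genes under 10 CPM were left out. Of 21 chemokines 2 rose and 3 fell, the falls being Ccl24, Cxcl13 and Cxcl12. Cxcl16, a scavenger receptor and chemokine, read 64, 64.8 and 48.3 CPM in lean and 84.4, 107 and 112 CPM in obese libraries (log2 change 0.78, SE 0.19). Of the chemokines, 0 were lower with any 1 lean library or obese replicate 2 or 3 left out and 5 among the 16 tested when genes under 10 CPM were left out.

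Interferon-stimulated genes were lower in 5 of 26 and higher in 0, with a median of -0.47 (-0.28 with lean replicate 2 left out). That is 19.2% of the list, against 13.8% of all tested genes called lower. Of the 5 genes, 2 averaged 10 CPM or more in lean mice. Stat2, of the interferon signalling complex, read 72.4, 65.7 and 61.8 CPM in lean and 48.8, 38 and 39.2 CPM in obese libraries (log2 change -0.67, SE 0.13). Much of the list was uneven within lean mice: Oasl1 read 66, 373 and 117 CPM in lean and 76.7, 49 and 45.7 CPM in obese libraries (log2 change -1.69, SE 0.76) and Ifih1, a sensor of viral RNA, 57, 250.99 and 95.8 CPM in lean and 86.5, 51.8 and 55.9 CPM in obese libraries (log2 change -1.06, SE 0.59), with lean replicate 2 above all others, and neither was called. Of the interferon-stimulated genes, 2 were lower with lean replicate 2 or obese replicate 2 or 3 left out, 3 with lean replicate 3 left out and 6 among the 18 tested when genes under 10 CPM were left out.

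Of 21 immediate early and heat shock genes 1 rose and 8 fell, with a median of -0.39. Tissue digestion is known to induce such genes. Fos and Fosb, which encode partners of Jun proteins, changed in opposite directions, with 617, 667 and 683 CPM in lean and 1066, 1063 and 1047 CPM in obese libraries (log2 change 0.69, SE 0.19) for Fos and 2584, 2889.9 and 3099 CPM in lean and 2102, 2279 and 2195 CPM in obese libraries (log2 change -0.38, SE 0.12) for Fosb. Jund read 629.5, 710.2 and 579 CPM in lean and 442, 355 and 405 CPM in obese libraries (log2 change -0.67, SE 0.11). Hspa1b, an inducible HSP70 gene whose reads Hspa1a can share, was uneven among lean libraries, at 340.1, 1306 and 877 CPM in lean and 163, 266 and 194 CPM in obese libraries (log2 change -2.02, SE 0.55). Hspa1b lost its call with lean replicate 2 or any 1 obese library left out (highest adjusted p = 0.0878). Fos lost its call with lean replicate 1 or obese replicate 2 or 3 left out (highest adjusted p = 0.0548). Fosb lost its call with lean replicate 2 or 3 or any 1 obese library left out and without a filter (highest adjusted p = 0.116). Of the immediate early and heat shock genes, 2 were lower with obese replicate 2 or 3 left out, 3 with lean replicate 2 left out and 4 with lean replicate 3 left out. Of 18 clock genes 4 fell and 0 rose, among them Rora, a nuclear receptor of the clock, with 102, 132 and 127 CPM in lean and 83.4, 59.4 and 57.3 CPM in obese libraries (log2 change -0.85, SE 0.15). Of the clock genes, 2 were lower with obese replicate 2 left out.

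Of 26 matrix genes 9 rose and 3 fell (46.2% called, against 44.1% of all genes of at least 10 CPM), and at 10 CPM or more 6 rose and 3 fell. Mmp12 and Mmp9, both elastin-degrading proteases, changed by 4.83 and -4.55 on the log2 scale. Adam8, a membrane protease, read 72.7, 46.8 and 30.4 CPM in lean and 209, 488 and 455 CPM in obese libraries (log2 change 2.94, SE 0.33), and Mmp19 rose from 90.1 ± 25.1 to 228 ± 81.7 CPM. Mmp19 lost its call with lean replicate 3 or obese replicate 2 or 3 left out and with a replicate block in the compared libraries alone (highest adjusted p = 0.0662). Among 45 tested genes with symbols starting Col, mostly collagens, 5 rose and 14 fell, but at 10 CPM or more 3 rose and 1 fell. The median of the list was -0.39 (-0.22 with obese replicate 1 left out, -0.59 with obese replicate 3 left out), and 0.63 over the 19 tested when genes under 10 CPM were left out. Of the collagen genes, 1 was higher with obese replicate 2 left out, 2 with any 1 lean library left out and under upper quartile scaling, 3 with obese replicate 3 left out and 8 with obese replicate 1 left out, and 2 were lower among the 19 tested when genes under 10 CPM were left out, 7 with lean replicate 2 or obese replicate 3 left out and 8 with lean replicate 3 or obese replicate 2 left out. Of 24 growth factor genes 6 rose and 3 fell (37.5% called, against 44.1% of all genes of at least 10 CPM). Pdgfb, the platelet-derived growth factor B chain, read 13.7, 9.46 and 12.3 CPM in lean and 29.1, 57 and 42.5 CPM in obese libraries (log2 change 1.86, SE 0.21), and Gdf3, of the TGF-beta family, 2.24, 1.36 and 0.949 CPM in lean and 5.99, 14.4 and 13.2 CPM in obese libraries (log2 change 2.88, SE 0.32). Vegfa, the angiogenic factor, rose from 41.1 ± 15.4 to 86.1 ± 29.1 CPM, while Hbegf, a ligand of the EGF receptor, read 164, 177 and 145 CPM in lean and 87.5, 45.8 and 47.7 CPM in obese libraries (log2 change -1.42, SE 0.25). Of the matrix genes, 7 were lower under upper quartile scaling and among the 22 tested when genes under 10 CPM were left out. Vegfa lost its call with lean replicate 3 or obese replicate 3 left out and with a replicate block in the compared libraries alone (highest adjusted p = 0.154). Of the growth factors, 1 was lower with lean replicate 2 or 3 or obese replicate 3 left out, 5 with DESeq2 size factors and 6 under upper quartile scaling.

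Eicosanoid genes fell in 5 of 23 and rose in 1. Ptgs1, the constitutive cyclooxygenase, fell from 71 ± 6.06 to 23 ± 4.90 CPM. Ptgs1 lost its call with lean replicate 3 or obese replicate 2 or 3 left out (highest adjusted p = 0.0908). Lta4h, which opens the way to leukotriene B4, read 22.9, 19.5 and 21.7 CPM in lean and 31.1, 35.3 and 35.9 CPM in obese libraries (log2 change 0.67, SE 0.11). Alox15, a lipoxygenase that is also on the peritoneal macrophage list, read 37.1, 9.17 and 23.1 CPM in lean and 5.17, 9.69 and 8.13 CPM in obese libraries (log2 change -1.59, SE 0.41), so that lean replicate 2 lay below obese replicate 2. Alox15 lost its call with lean replicate 1 left out and with a replicate block in the compared libraries alone (highest adjusted p = 0.138). Of the eicosanoid genes, 2 were lower with lean replicate 3 left out, 3 with obese replicate 3 left out, 8 among the 17 tested when genes under 10 CPM were left out and 9 under upper quartile scaling. Of 24 sphingolipid genes 10 rose and 2 fell. Cers2, a ceramide synthase, rose from 89.2 ± 13.7 to 152 ± 19.6 CPM. Cers2 lost its call with obese replicate 2 or 3 left out (highest adjusted p = 0.0633). Of the sphingolipid genes, 3 were higher with obese replicate 2 or 3 left out and 5 with lean replicate 2 left out and under upper quartile scaling.

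Receptors of adhesion and guidance changed in both directions. Of 24 adhesion genes 10 rose and 5 fell. Itgav and Itgb5, the chains of the vitronectin receptor alpha v beta 5, read 118, 122 and 106 CPM in lean and 220.5, 298 and 286 CPM in obese libraries (log2 change 1.21, SE 0.14), and 33.7, 29.4 and 27.7 CPM in lean and 83.3, 170.4 and 171 CPM in obese libraries (log2 change 2.22, SE 0.27). Itgal, the alpha chain of LFA-1, fell from 24.8 ± 1.66 to 8.45 ± 2.43 CPM, and is also a gene of lymphocytes. Of 28 guidance genes 4 rose and 9 fell. Sema4d, a semaphorin of leukocytes, read 23.2, 21.2 and 15.7 CPM in lean and 43.8, 80.4 and 94.8 CPM in obese libraries (log2 change 1.87, SE 0.26), and the semaphorin receptors Plxna1 and Plxnb2 read 162, 147 and 137 CPM in lean and 269, 375 and 338 CPM in obese libraries (log2 change 1.14, SE 0.16), and 369.8, 337 and 293 CPM in lean and 532, 731 and 658 CPM in obese libraries (log2 change 0.94, SE 0.15). The 9 that fell included Sema4a, from 209.6 ± 2.97 to 111 ± 33.4 CPM, and Sema6a, from 65.8 ± 5.20 to 26.2 ± 10.4 CPM. Sema6a lost its call with obese replicate 2 or 3 left out (highest adjusted p = 0.0678). Of the adhesion genes, 2 were lower with lean replicate 2 or 3 or obese replicate 2 or 3 left out and 3 with lean replicate 1 or obese replicate 1 left out. Of the guidance genes, 4 were lower with obese replicate 2 or 3 left out and 5 with lean replicate 2 left out.

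Of 24 Fc and inhibitory receptors 10 rose and 2 fell. Sirpa, the receptor of CD47, read 473, 424 and 372 CPM in lean and 742, 969 and 929.9 CPM in obese libraries (log2 change 1.06, SE 0.14), the inhibitory receptor Cd300a 80.1, 73.8 and 79.5 CPM in lean and 138, 184 and 182 CPM in obese libraries (log2 change 1.11, SE 0.13) and the activating Fcgr4 3.38, 3.69 and 2.20 CPM in lean and 7.22, 14.4 and 16.9 CPM in obese libraries (log2 change 2.06, SE 0.34). The siglec genes Cd33 and Siglece changed by -0.85 and -0.95. Cd33 lost its call with obese replicate 2 or 3 left out (highest adjusted p = 0.0890). Of the Fc and inhibitory receptors, 6 were higher with lean replicate 2 or 3 or obese replicate 2 or 3 left out. Among 26 chemokine and cytokine receptors 6 rose and 4 fell. Il7r, the interleukin 7 receptor, read 11.6, 9.03 and 7.42 CPM in lean and 24.6, 45.7 and 61.2 CPM in obese libraries (log2 change 2.23, SE 0.28), and Tgfbr1 64.9, 68.5 and 66.8 CPM in lean and 130.0, 173 and 188 CPM in obese libraries (log2 change 1.29, SE 0.14). Ccr1, a receptor of inflammatory chemokines, fell from 452 ± 87.5 to 156 ± 75.1 CPM. Of the chemokine and cytokine receptors, 2 were higher among the 21 tested when genes under 10 CPM were left out and 3 with obese replicate 2 or 3 left out and under upper quartile scaling, and 2 were lower with lean replicate 1 or 2 or obese replicate 2 or 3 left out and 5 among the 21 tested when genes under 10 CPM were left out.

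MHC class II counted 3 higher and 1 lower of 11 (30.7% of all tested genes were called). H2-Ab1 read 257, 209.6 and 232 CPM in lean and 267, 327 and 443 CPM in obese libraries (log2 change 0.57, SE 0.21), and Ciita, the master activator of these genes, 18, 20 and 18 CPM in lean and 27.5, 36.5 and 42.3 CPM in obese libraries (log2 change 0.92, SE 0.16). H2-Ab1 lost its call with any 1 lean library or obese replicate 2 or 3 left out, with DESeq2, with DESeq2 size factors, in the compared libraries alone, at equal depth, when genes under 10 CPM were left out, among protein-coding genes, with a replicate block in the compared libraries alone and under upper quartile scaling (highest adjusted p = 0.316). Of the MHC class II genes, 1 was higher with lean replicate 2 or 3 or obese replicate 2 or 3 left out and under upper quartile scaling and with DESeq2 size factors and among the 7 tested when genes under 10 CPM were left out. Complement counted 2 higher and 1 lower of 21, the fall being the adipocyte product Cfd. The list of endoplasmic reticulum stress and amino acid response counted 4 higher and 1 lower of 22, with the serine synthesis gene Psat1 at 8.86, 5.92 and 7.59 CPM in lean and 15.8, 22.5 and 19.6 CPM in obese libraries (log2 change 1.37, SE 0.20) and the stress factor Xbp1 at 173, 159.9 and 172 CPM in lean and 131, 111 and 109 CPM in obese libraries (log2 change -0.53, SE 0.15). Xbp1 lost its call with lean replicate 1 or 3 or obese replicate 2 or 3 left out (highest adjusted p = 0.105). Of the stress and amino acid response genes, 2 were higher with lean replicate 2 or obese replicate 2 left out and under upper quartile scaling.

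The obese libraries were not alike, and obese replicate 1 stood nearest to lean. Among genes of at least 10 CPM it exceeded both other obese libraries by 1.5 times in 356 and fell short of both by 1.5 times in 236, against 122 and 26 for obese replicate 2 and 17 and 17 for obese replicate 3. All 20 lipid-associated genes were lower in obese replicate 1 than in the mean of the other 2, with a median log2 ratio of -0.59. Resident genes were higher in it in 19 of 24, with a median of 0.45, and interferon-stimulated genes in 24 of 26, with a median of 0.34. Mitosis genes did not follow: 25 of 30 were higher in obese replicate 1, with a median of 0.16. Relative to the lean mean, the median lipid-associated gene stood at 1.04 in obese replicate 1 and 1.65 and 1.54 in replicates 2 and 3 on the scale of log2(CPM + 0.5), and the median mitosis gene at 1.91, 1.82 and 1.67. The median resident gene stood at -0.05, -0.48 and -0.51. In CD11c-negative macrophages obese replicate 1 was lower for the lipid-associated list as well, with a median log2 ratio of -0.54, whereas the median was 0.08 for resident genes and -0.04 for interferon-stimulated genes. Obese replicate 1 also held fewer reads of the 8 tested mast cell and eosinophil markers, 11.6 CPM for the list against 67.4 and 77.3, and of the 14 endothelial markers, 99.5 against 203 and 188 CPM. Without it the log2 change of Gpnmb was 5.43 in place of 5.08, that of Fat3 6.33 in place of 5.87 and that of Cd163 -1.42 in place of -1.09. These are descriptions of 1 library, with no test.

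**Figure D4:**
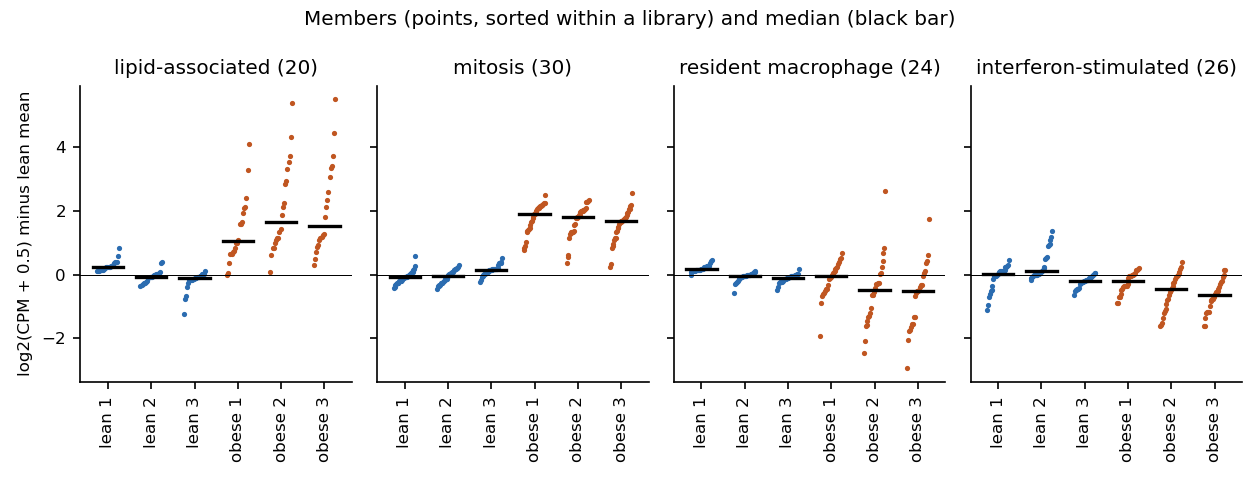
Members of 4 gene lists in each of the 6 libraries as log2(CPM + 0.5) minus the gene's lean mean, sorted within a library, with black bars at the median; blue libraries are lean and orange ones obese. The lipid-associated median is 1.04 in obese replicate 1 and 1.65 in obese replicate 2, whereas the mitosis median is 1.91 and 1.82.

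Whether the diet effect differs from that in CD11c-negative macrophages was tested as the difference of the 2 effects. In the fit of all libraries 0 of 22935 genes (0.0%) were called by edgeR, and the lowest adjusted p was 0.173. An unadjusted p under 0.05 was found for 634 genes (413 with a higher and 221 with a lower effect in MHCII-low cells). That is a smaller share than the 0.05 of tests expected by chance if no effect differed. DESeq2 called 8 genes, among them Cd163, Mmp13, Pdgfb and Tfrc. Libraries of both populations with the same number in their descriptions deviated together, with r of 0.587 and 0.461 for the 2 such lean pairs and 0.589, 0.692 and 0.406 for the 3 obese pairs, across the 8655 genes of at least 10 CPM. The remaining lean libraries, MHCII-low replicate 2 and CD11c-negative replicate 3, bear different numbers and had r of 0.631. A fit on the 12 libraries with the equal-number pairs as blocks, added after the data were seen, called 104 of 20506 genes (0.507%). The effect was higher in MHCII-low cells for 88 of them and lower for 16. The remaining lean libraries were each a block alone there and do not inform the difference, so its lean side rests on 2 pairs. Of the 24 resident macrophage genes 11 were called there, each with a higher effect in MHCII-low cells, and the median difference was 0.58 on the log2 scale against 0.02 over all tested genes. Of the 20 lipid-associated genes 2 were called, and of 30 mitosis genes 1. Cd163 was at 1618 ± 81.2 and 760.1 ± 288 CPM in lean and obese MHCII-low cells and 1232 ± 37.5 and 187 ± 32.5 CPM in CD11c-negative cells, a difference of 1.57 (SE 0.15, adjusted p = 0.000549) in the paired fit and 1.63 (SE 0.28, adjusted p = 0.173) in the fit of all libraries. Timd4 showed 1.66 (SE 0.17) in the paired fit. The resident list was drawn up with earlier results known, and none of its members was called in the fit of all libraries.

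**Figure D5:**
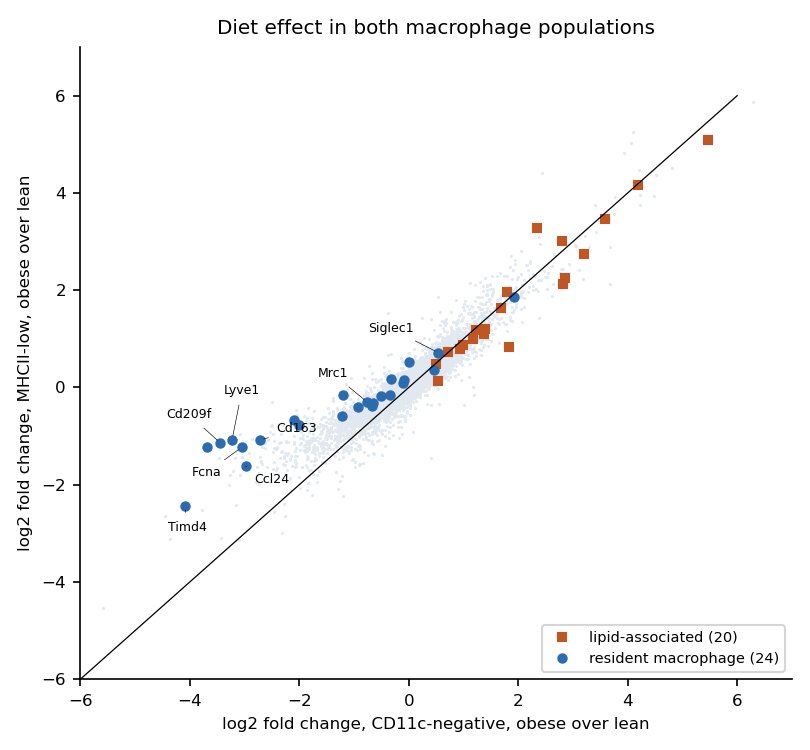
Log2 fold change with diet in CD11c-negative (x axis) and MHCII-low macrophages (y axis), both obese over lean, for genes of at least 10 CPM (pale), lipid-associated genes (orange squares) and resident macrophage genes (blue circles); the line marks equal change. Resident genes such as Lyve1, at -1.07 against -3.23, lie above the line.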

How the data were processed

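Gene counts were deposited by the authors as 1 table of raw counts for 54532 genes and 21 libraries. Per the submitters' processing notes, the tools were featureCounts (Subread 1.4.6-p5), STAR 2.6.0a, Trim Galore 0.4.5 and bcl2fastq, with the build GRCm38. No source used here says whether counting used strand, and reads of genes that overlap on opposite strands cannot be told apart. Such overlaps affect 71 of the 230 genes that the naming rule below picks. Depth sets the precision: library totals are given with the results.

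The counts were fitted with the robust quasi-likelihood test of edgeR 4.0.16 in R 4.3.3 over all 7 groups, with TMM scaling and filterByExpr, which left 22935 genes and 14 residual degrees of freedom. Tests were 2-sided, with p-values adjusted by the Benjamini-Hochberg method over all tested genes and a threshold of 0.05. Members and gene lists were chosen with earlier results of these data known. Genes named are the 12 largest rises and falls of protein-coding genes of at least 10 CPM without overlap, the 8 largest gains and losses of CPM, up to 4 called members of each list by p and up to 2 not called by level, and a fixed set of markers. Other list members named in the text were chosen after their values were seen. The rule for called differences between populations, and the rule for genes near 0 in 1 diet, named no gene in this fit, and the first was applied to the paired fit instead. The rule named 3 mitosis and 2 proton pump promoters to show. The 5 mitosis promoters shown in their place were settled after seeing the data. Some genes that these rules pick are not reported here. Protein sequences were not used here. The alternatives were other scalings, DESeq2 1.42.0, other filters, equal depth, protein-coding genes, the compared libraries alone, a replicate block and leaving out each library. In simulated data with 200 of 22935 genes changed, the test for the diet effect recovered 61% of genes changed by 1 and 92% of those changed by 2 on the log2 scale, with 3 false calls. The changed genes averaged over 1 CPM, with rises and falls in equal number, and were far fewer than the 7030 calls in the data. The simulation therefore cannot tell how scaling or low counts affect those calls.

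Libraries of the MHCII-low and CD11c-negative populations carry numbers in their titles and in their descriptions, which disagree for some lean libraries. Equal description numbers deviated together in every pair, and the fit with these pairs as blocks was added after seeing the data. Lean libraries without a partner of equal number were blocks alone and do not inform the difference in that fit.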

Additional observations from a re-analysis of the deposited data

Results flagged for a closer look

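The diet effect differed between MHCII-low and CD11c-negative macrophages for 11 genes taken by rule from the paired fit by edgeR, which was added after seeing the data, and none of them was called in the fit of all libraries. In the paired fit, lean libraries without a partner of equal description number do not inform the difference. Positive differences mean a higher effect in MHCII-low cells, and each gene's own log2 changes with diet come from the fit of all libraries. Those changes with diet are given whether or not they were called. In MHCII-low cells that of Lyve1 was not called, and those of Olr1, Stab2 and Sorl1 were called in 0 of 16 alternative fits. Lyve1 and the Cd209 lectins, whose reads related copies can share, had less negative changes in MHCII-low cells. Lyve1, the hyaluronan receptor, changed by -1.07 in MHCII-low and -3.23 in CD11c-negative cells, a paired difference of 2.07 (SE 0.17, adjusted p = 0.000253), and 2.16 (adjusted p = 1.00) in the fit of all libraries. Cd209b changed by -0.95 in MHCII-low and -3.09 in CD11c-negative cells, a paired difference of 2.02 (SE 0.14, adjusted p = 8.42e-05), and 2.13 (adjusted p = 1.00) in the fit of all libraries. Cd209d changed by -1.07 in MHCII-low and -3.26 in CD11c-negative cells, a paired difference of 2.16 (SE 0.17, adjusted p = 0.000219), and 2.18 (adjusted p = 1.00) in the fit of all libraries. Cd209f changed by -1.14 in MHCII-low and -3.44 in CD11c-negative cells, a paired difference of 2.19 (SE 0.16, adjusted p = 0.000182), and 2.30 (adjusted p = 0.723) in the fit of all libraries. Cd209g changed by -1.23 in MHCII-low and -3.69 in CD11c-negative cells, a paired difference of 2.37 (SE 0.19, adjusted p = 0.000324), and 2.46 (adjusted p = 0.723) in the fit of all libraries. Mmp13, a collagenase, changed by 1.52 in MHCII-low and -0.39 in CD11c-negative cells, a paired difference of 1.84 (SE 0.25, adjusted p = 0.00834), and 1.91 (adjusted p = 0.468) in the fit of all libraries. Myh15, a myosin heavy chain, changed by 5.34 in MHCII-low and 8.11 in CD11c-negative cells, a paired difference of -2.80 (SE 0.42, adjusted p = 0.0124), and -2.77 (adjusted p = 1.00) in the fit of all libraries. Its highest level in any library of either population was 85.8 CPM. A change of 8.11 then leaves lean CD11c-negative cells at very low counts, on which the size of the difference depends. Olr1, a receptor of oxidised lipoproteins, changed by -0.37 in MHCII-low and 1.01 in CD11c-negative cells, a paired difference of -1.48 (SE 0.16, adjusted p = 0.00173), and -1.38 (adjusted p = 0.745) in the fit of all libraries. Stab2, a scavenger receptor, changed by -0.15 in MHCII-low and 1.20 in CD11c-negative cells, a paired difference of -1.31 (SE 0.24, adjusted p = 0.0400), and -1.35 (adjusted p = 1.00) in the fit of all libraries. Itga6, an integrin of laminin, changed by 1.42 in MHCII-low and 2.37 in CD11c-negative cells, a paired difference of -1.29 (SE 0.23, adjusted p = 0.0475), and -0.96 (adjusted p = 1.00) in the fit of all libraries. Sorl1, a sorting receptor, changed by 0.01 in MHCII-low and 1.16 in CD11c-negative cells, a paired difference of -1.22 (SE 0.19, adjusted p = 0.0143), and -1.16 (adjusted p = 0.830) in the fit of all libraries.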

How the results depend on the processing

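The 7030 calls of the diet effect ranged from 5257 at equal depth to 7788 with DESeq2 under the alternatives that kept all libraries, except that 3826 were called when genes under 10 CPM were left out before the fit. Leaving out 1 library gave 3323 to 6281 calls, lowest without obese replicate 2, and 1849 to 3473 at 10 CPM or more in place of 3818. Without obese replicate 3 the calls numbered 3566, without lean replicate 2 4187 and without lean replicate 3 4468. No call of the first fit was called in the other direction under any of these, and calls that were lost were not checked for direction here. Equal numbers of lean and obese MHCII-low libraries did not deviate together, with r of -0.18, -0.15 and 0.07, so the numbers do not pair the diets. With the title's replicate block 7165 genes were called over all libraries and 5785 in the compared libraries alone, and at 10 CPM or more 3932 and 3427. For the difference between the populations the 0 calls became 8 with DESeq2, 123 without a filter on low counts, 63 with the title number within diet as a replicate block and 104 with the description number, and leaving out 1 library gave 0 to 2, of which 2 came without obese MHCII-low replicate 1, 1 without obese MHCII-low replicate 3 and 1 without obese CD11c-negative replicate 1. Of the diet calls of named genes, none changed direction, and 7 to 31 were lost without 1 library, most without obese replicate 2. Where 1 library is left out, the spread is pooled over all groups. The cause of these changes was not tested. Lean libraries were shallower than obese ones, which limits calls of genes of low count in them.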
